A study of Mus musculus with 8 samples.

Results

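The MYC and MXD network was followed through 7 genes, Myc, Max, Mxd1, Mxd4, Mxi1, Mnt and Mga, in immortalized mouse macrophages given disulfiram, lipopolysaccharide or both. The members were the rows of the deposited count table whose mouse Ensembl gene identifier, with its version removed, maps to these symbols: 7 rows of 55414 gene identifiers. The cells were iBMDM, an immortalized line of bone marrow macrophages, and were wild type in all 4 groups. How this line was immortalized, and whether it is 1 clone, is not given in the sources used here. Control cells received the solvent DMSO for 0.5 h and then water for 4 h. DSF cells received 5 μM disulfiram (DSF, a drug that reacts with protein thiols) for 0.5 h and then water for 4 h. LPS cells received DMSO and then 1 μg/ml lipopolysaccharide (LPS, the bacterial cell wall component that activates the receptor TLR4). DSF+LPS cells received both. Messenger RNA was sequenced from 2 samples per group. The series asked whether disulfiram blocks activation by LPS. The labels number the samples without saying whether they were separate cultures, so a p-value here reflects the spread between numbered samples, and that spread may be technical.

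As background, MYC is a transcription factor of the basic helix-loop-helix leucine zipper class that binds DNA only as a pair with MAX, at the E-box CACGTG and its variants. MAX also pairs with the MXD proteins (MXD1, MXI1 and MXD4 among them), with MNT and with MGA, and these pairs occupy the same sites. MXD proteins and MNT recruit the SIN3 and histone deacetylase corepressor and so oppose MYC at genes of growth and ribosome assembly. MGA, a very large protein with a T-box as well, places MAX in the Polycomb complex PRC1.6, which keeps germline genes silent. In macrophages Myc is a short-lived message that responds to growth factors and to TLR4. Many macrophage lines of this kind were made with a retrovirus that carries a viral myc gene. The table analysed here holds only mouse gene identifiers, so a message from such a gene was not measured as a row of its own.

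The 8 libraries held 17822041 to 21694922 counts, and 16304 genes passed the filter on low counts, all 7 members among them. Levels below are CPM, the counts of a gene scaled by the TMM library size, and so are shares of a library. In bulk samples fewer cells of a type and less RNA per cell cannot be told apart. The sums over a marker list in this paragraph are the exception: they are CPM by plain library size, without the TMM factor, while levels of single genes carry it. All 8 macrophage markers checked were detected, with summed levels between 1994 and 2603 CPM in every library. With DSF, 4 of these 8 were lower and 2 higher at an adjusted p under 0.05, beside 27.1% and 31.0% over all genes tested. Those lower included Csf1r, at 815 CPM in control and 461 in DSF cells (log2 -0.82), and Fcgr1, at 43.2 and 11.3 (log2 -1.93). The 2 higher were Cd68, at 580 and 760 (log2 0.39), and Lyz2, at 395 and 515 (log2 0.38). In DSF+LPS against LPS 5 were lower and 2 higher, beside 31.6% and 33.7%. Markers of neutrophils, dendritic cells, lymphocytes and fibroblasts each summed to at most 4.18 CPM, and S100a9, Cd3e, Nkg7 and Cd8a had no count in any library. The list of 8 epithelial and endothelial markers summed to 19.7 to 21.1 CPM in control, 65.5 to 74.1 in DSF, 19.7 to 20.5 in LPS and 76.1 to 83.9 in DSF+LPS libraries, with Vwf at 10.6, 58.4, 7.08 and 74.7 CPM in these groups. More genes had at least 1 count in the libraries with DSF (23416 to 25081) than in those without it (19779 to 20324). The part of these shifts in the results below was not tested. The DSF+LPS pair differed most between its samples, with a chi-square of 13.3 per degree of freedom over genes, against 3.88 to 7.07 in the other pairs.

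With LPS alone Myc, Max and Mxd1 rose, while Mxd4, Mxi1 and Mnt fell. With DSF alone 6 members rose, Myc and Mxd1 the most, and Max fell. With DSF before LPS, Myc showed no called difference from LPS alone, Max was lower, and Mxd1, Mxd4, Mxi1, Mnt and Mga were all higher than with LPS alone. Changes were tested with edgeR's quasi-likelihood test and called at an adjusted p under 0.05. LPS was called in 3 members upwards and 3 downwards, where 15.2% of all tested genes were higher and 13.8% lower (29.0% called). DSF was called in 6 upwards and 1 downwards, where 31.0% were higher and 27.1% lower (58.1% called). DSF+LPS against LPS was called in 5 upwards and 1 downwards, where 33.7% were higher and 31.6% lower (65.3% called). LPS given to cells already treated with DSF was called in 1 member, downwards, where 5.53% were higher and 6.53% lower (12.1% called). DSF+LPS against control was called in 4 upwards and 1 downwards, where 34.3% were higher and 30.9% lower (65.2% called). The LPS response differed with and without DSF in 3 members upwards and 2 downwards, where 7.58% were higher and 12.2% lower (19.7% called). These comparisons share libraries, so their counts are not independent of each other, and with DSF added a call alone does not set the members apart from the other genes. The calls of Myc against control and in the difference of LPS responses are among them, with the limit given for Myc below. The median log2 change of the 7 members was 0.07 for LPS, 0.63 for DSF and 0.89 for DSF+LPS against LPS, beside 0.02, 0.05 and 0.04 over all genes tested. With library size alone in place of TMM the median of all genes shifted by -0.14 for LPS, -0.10 for DSF, -0.11 for DSF+LPS against DSF and -0.21 for DSF+LPS against control, and the genes called were then 1614 higher and 3774 lower for LPS (2485 and 2246 with TMM), 464 and 2190 for DSF+LPS against DSF (901 and 1065) and 4500 and 6482 for DSF+LPS against control (5594 and 5030).

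**Figure D1:**
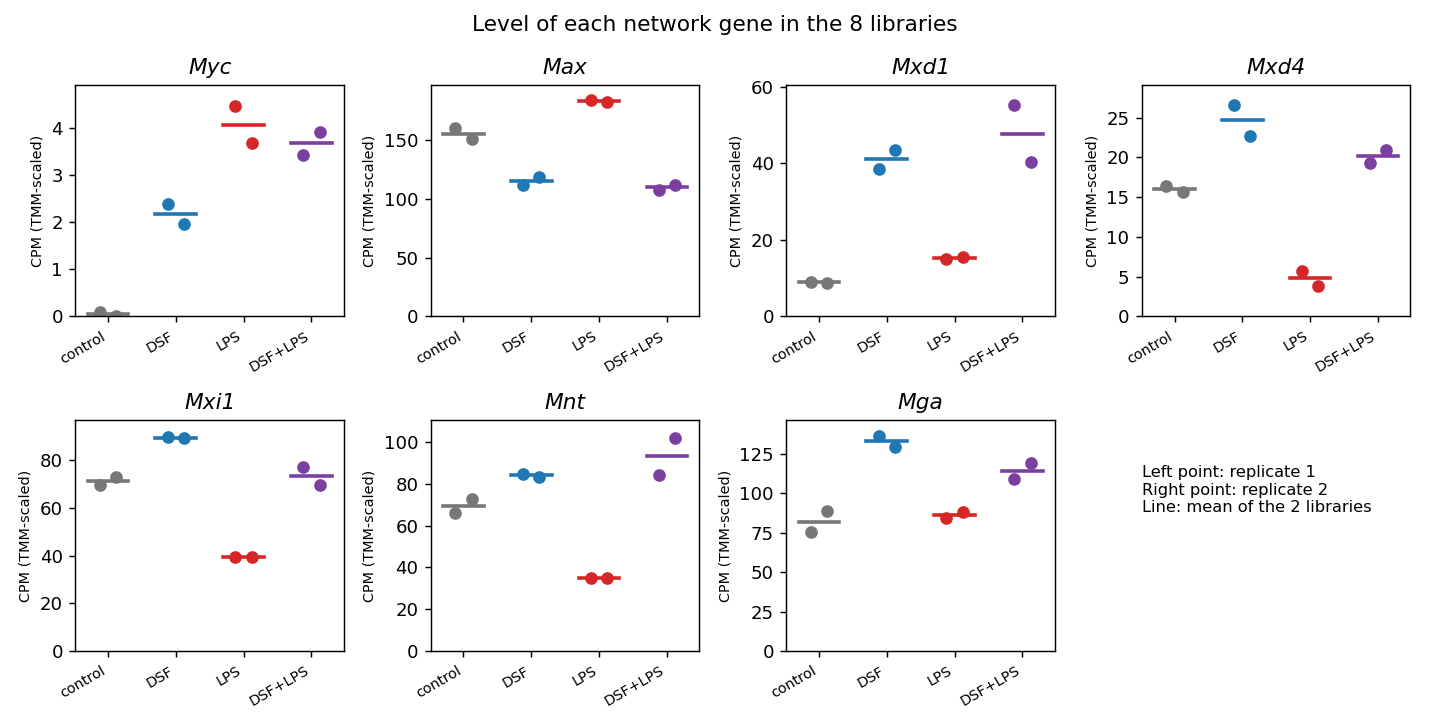
Level of each of the 7 genes in each library, as TMM-scaled CPM on a linear axis from 0 whose scale differs between panels; points are libraries (replicate 1 left, 2 right) and short lines are group means. Mxd4, Mxi1 and Mnt have their lowest points in the LPS libraries, Mxd1 its highest in those with DSF, and Myc stands at or near 0 in both control libraries.

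Myc, the activator of the network, was almost silent in control cells and was raised by either agent. Its counts were 2 and 0 in control, 53 and 38 in DSF, 91 and 77 in LPS, and 68 and 72 in DSF+LPS libraries. Every treated library lay far above both control libraries, and the LPS and DSF+LPS libraries overlapped. In CPM the means were 0.0517 ± 0.0732 in control, 2.18 ± 0.309 in DSF, 4.07 ± 0.556 in LPS and 3.68 ± 0.352 in DSF+LPS cells (SD, n = 2 in each). Because the control level rests on 2 reads, the pooled ratio to control is wide: 86.0 for LPS (95% interval 23.4 to 716), 46.4 for DSF (12.5 to 389) and 77.6 for DSF+LPS (21.1 to 647). These intervals cover counting error only. All 3 differences from control were called. Myc entered the test only through the treated groups, where it is high, so its counts are a description and no test against control is read from them. DSF before LPS left no called difference from LPS alone, with a log2 difference of -0.15 (SE 0.29, adjusted p = 0.675). After DSF, LPS came with a log2 difference of 0.75 (SE 0.31), which did not pass the test (adjusted p = 0.137) although the DSF and DSF+LPS libraries did not overlap. In the fit, the LPS response with DSF present was lower than without it by 5.50 on the log2 scale (SE 0.71). The same limit holds for this difference. The size of that value rests on the 2 control reads: it was -8.65 without the first control library and -4.47 without the second.

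Max, the partner that the other members share, was the most abundant message of the network per kilobase of exon in every group, while in CPM, not corrected for length, Mga was above it in DSF and DSF+LPS cells. Per kilobase of exon its level was 43.2 CPM in control cells, where Mnt came next at 15.0 and Mxi1 at 10.5. The CPM values were 160 and 151 in control, 112 and 119 in DSF, 184 and 183 in LPS, and 108 and 112 in DSF+LPS libraries. The LPS libraries were the highest, and all 4 libraries with DSF were below all 4 without it. Max fell with DSF to 0.741 of control (log2 change -0.43, SE 0.07, adjusted p = 0.000113), and DSF+LPS was at 0.599 of LPS (log2 -0.74, SE 0.07, adjusted p = 4.18e-07). The rise with LPS was small, at 0.24 on the log2 scale (SE 0.07, adjusted p = 0.0187), and this call was lost with library size alone as scaling (0.08, adjusted p = 0.419), with no filter (adjusted p = 0.0519) and without any 1 of the control or LPS libraries (adjusted p from 0.0549 to 0.203). DSF and DSF+LPS libraries overlapped for Max (adjusted p = 0.598). A low-count gene model, Gm47218, lies over Max on the same strand with 13 to 48 counts a library, against 2051 to 3827 for Max. The LPS response of Max with DSF was lower than without it by 0.31 on the log2 scale (SE 0.10, adjusted p = 0.0443), a call that was lost with DESeq2 (adjusted p = 0.0572), with the replicate block (0.0503) and without any 1 library (up to 0.209).

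The promoters of 6 of the 7 members were found in the RefSeq table of mouse promoters (build GRCm38.p6, 250 bases before to 50 after the annotated start), with no entry for Myc. Max, Mxd4 and Mnt carry the exact E-box CACGTG there, the site that MYC-MAX and MXD-MAX pairs bind, and these 3 promoters are shown because the members' own proteins recognise that sequence. Each is written 5′ to 3′ along the gene with the E-box in capitals. Max lies at chr12:76962199-76962498 (minus strand), Mxd4 at chr5:34187661-34187960 (minus strand) and Mnt at chr11:74830674-74830973 (plus strand).
Max: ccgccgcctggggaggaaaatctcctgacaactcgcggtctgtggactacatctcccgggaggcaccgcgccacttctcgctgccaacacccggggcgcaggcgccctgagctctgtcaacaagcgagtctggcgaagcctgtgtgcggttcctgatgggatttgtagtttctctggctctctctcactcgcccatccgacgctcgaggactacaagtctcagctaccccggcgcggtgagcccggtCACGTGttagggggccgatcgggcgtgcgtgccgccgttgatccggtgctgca
Mxd4: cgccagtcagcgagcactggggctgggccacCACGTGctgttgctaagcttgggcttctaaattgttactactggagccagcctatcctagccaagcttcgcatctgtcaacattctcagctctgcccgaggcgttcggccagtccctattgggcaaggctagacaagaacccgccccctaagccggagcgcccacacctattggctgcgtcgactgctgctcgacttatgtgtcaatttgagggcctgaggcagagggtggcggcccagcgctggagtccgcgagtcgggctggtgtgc
Mnt: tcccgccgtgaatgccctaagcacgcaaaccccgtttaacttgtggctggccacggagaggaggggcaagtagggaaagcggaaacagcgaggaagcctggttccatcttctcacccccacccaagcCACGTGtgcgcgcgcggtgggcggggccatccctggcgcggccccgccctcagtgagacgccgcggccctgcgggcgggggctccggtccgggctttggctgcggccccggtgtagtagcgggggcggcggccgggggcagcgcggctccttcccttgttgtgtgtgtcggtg

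Counted from the annotated start, the first base of the E-box is at position -3 in Max, -219 in Mxd4 and -123 in Mnt. No CACGTG stands in the windows of Mxd1, Mga or the 3 annotated promoters of Mxi1. Of all 32851 promoters of the same length in the table, 7.15% hold CACGTG, which reads the same on both strands. The 3 genes that carry it did not move alike: Max rose with LPS in the test, and Mxd4 and Mnt fell. The core of the antioxidant response element, TGACNNNGC on either strand, was found in the windows of Max (2 matches), Mxd1, Mga and 1 promoter of Mxi1, against 12.4% of all promoters. The AP-1 motif TGANTCA (7.81% of promoters) and the kappa-B motif (0.411%) were in no member's window, and the heat shock element pair GAANNTTC (7.86%) was in that of Mga. A match is a run of letters and no site of binding was measured here.

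Mxd1, the repressor that rises when myeloid cells stop dividing, had the largest fold change with DSF after Myc. Its CPM values were 9.05 and 8.85 in control, 15.0 and 15.4 in LPS, 38.5 and 43.6 in DSF, and 55.3 and 40.3 in DSF+LPS libraries. Control and LPS libraries were each tight and apart from each other, while the DSF and DSF+LPS libraries overlapped because the first DSF+LPS library was the highest of all and the second lay within the DSF range. DSF raised Mxd1 to 4.58 times control (log2 change 2.20, SE 0.15, adjusted p = 1.38e-08), and DSF+LPS was 3.14 times LPS (log2 1.65, SE 0.14, adjusted p = 1.01e-07). LPS alone raised it 1.70-fold (log2 0.77, SE 0.16, adjusted p = 0.00152). LPS after DSF gave a log2 difference of 0.22 (SE 0.13, adjusted p = 0.301) that depended on the pair of DSF+LPS libraries: it was -0.034 without the first and 0.46 (adjusted p = 0.00940) without the second. The smaller LPS response in the presence of DSF, -0.54 on the log2 scale (SE 0.20), did not pass (adjusted p = 0.0758), and passed with no filter (adjusted p = 0.0498) or without the first DSF+LPS library (-0.78, adjusted p = 0.00173).

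Mxd4, a close relative of Mxd1 that binds the same corepressor, went the opposite way with LPS. The CPM values were 16.3 and 15.6 in control, 26.6 and 22.7 in DSF, 5.75 and 3.87 in LPS, and 19.3 and 21.0 in DSF+LPS libraries. The LPS libraries stood below all others and the 4 groups did not overlap. LPS alone lowered Mxd4 to 0.301 of control (log2 change -1.73, SE 0.17, adjusted p = 1.53e-06), the steepest fall of the 7 members. DSF raised it 1.55-fold (log2 0.63, SE 0.15, adjusted p = 0.00201), and DSF+LPS was 4.19 times LPS (log2 2.07, SE 0.17, adjusted p = 7.35e-08). After DSF, LPS came with a log2 difference of -0.29 (SE 0.15, adjusted p = 0.215), and the LPS response was 1.44 higher on the log2 scale with DSF than without (SE 0.22, adjusted p = 0.000340). DSF+LPS against control was 0.33 (SE 0.15, adjusted p = 0.0615), which passed with the median-of-ratios scaling (adjusted p = 0.0409), with only the groups compared in the fit (0.0308) and without either LPS library (0.0496 and 0.0490).

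Mxi1, the third MXD repressor, followed Mxd4 at a higher level and with smaller folds. The CPM values were 69.7 and 73.0 in control, 89.7 and 89.0 in DSF, 39.3 and 39.5 in LPS, and 77.1 and 69.6 in DSF+LPS libraries. LPS libraries were again the lowest, and those of DSF+LPS lay around those of the control. LPS lowered Mxi1 to 0.553 of control (log2 change -0.86, SE 0.08, adjusted p = 1.29e-06), DSF raised it 1.25-fold (log2 0.32, SE 0.08, adjusted p = 0.00291), and DSF+LPS was 1.86 times LPS (log2 0.89, SE 0.08, adjusted p = 2.76e-07). LPS after DSF lowered it to 0.820 of DSF (log2 -0.29, SE 0.08, adjusted p = 0.0328), a call that was lost with the median-of-ratios scaling (adjusted p = 0.0516), with only these groups in the fit (0.130) and without any library other than the first of DSF+LPS (up to 0.219). The LPS response was higher with DSF by 0.57 on the log2 scale (SE 0.12, adjusted p = 0.00262). A gene on the opposite strand of Mxi1, AC133451.2, had 2 to 4 counts in the libraries without DSF and 102 to 152 in those with it. How the counting used strand is not given in the sources used here, so reads from such an overlap cannot be told apart from those of Mxi1, whose counts were 1275 to 1982 in the same libraries with DSF.

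Mnt, the MAX partner that is present in most resting and dividing cells, fell with LPS alone and was above control when DSF came first. The CPM values were 66.1 and 72.8 in control, 84.8 and 83.1 in DSF, 35.0 and 34.8 in LPS, and 84.3 and 102 in DSF+LPS libraries. The LPS libraries were the lowest and nearly equal, and the DSF and DSF+LPS libraries overlapped. LPS lowered Mnt to 0.502 of control (it fell by 1.00 on the log2 scale, SE 0.10, adjusted p = 1.55e-06), and DSF+LPS was 2.67 times LPS (log2 1.42, SE 0.10, adjusted p = 1.19e-08). The LPS response was 1.14 higher on the log2 scale with DSF than without (SE 0.14, adjusted p = 2.63e-05). DSF raised Mnt 1.21-fold (log2 0.27, SE 0.09, adjusted p = 0.0221), and this call was lost with library size alone (0.17, adjusted p = 0.132) and without the first control library (0.208) or either DSF library (0.103 and 0.0748). DSF+LPS was 1.34 times control (adjusted p = 0.00117), or adjusted p = 0.0560 with library size alone.

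Mga, the T-box member that links MAX to PRC1.6, responded to DSF and showed no called response to LPS. The CPM values were 75.3 and 88.5 in control, 84.6 and 87.8 in LPS, 137 and 129 in DSF, and 109 and 119 in DSF+LPS libraries. Control and LPS libraries overlapped, and every library with DSF was above them. DSF raised Mga 1.62-fold (log2 change 0.70, SE 0.09, adjusted p = 8.63e-06), and DSF+LPS was 1.32 times LPS (log2 0.40, SE 0.09, adjusted p = 0.000995). LPS alone gave a log2 difference of 0.07 (SE 0.09, adjusted p = 0.593), which was -0.084 with library size alone and -0.040 without the first control library. LPS after DSF gave -0.22 (SE 0.09, adjusted p = 0.112), without overlap between the groups, and passed with library size alone (-0.33, adjusted p = 0.0193). Its 15.34 kb of exon make Mga a low message per length, 5.34 CPM per kilobase in control cells.

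**Figure D2:**
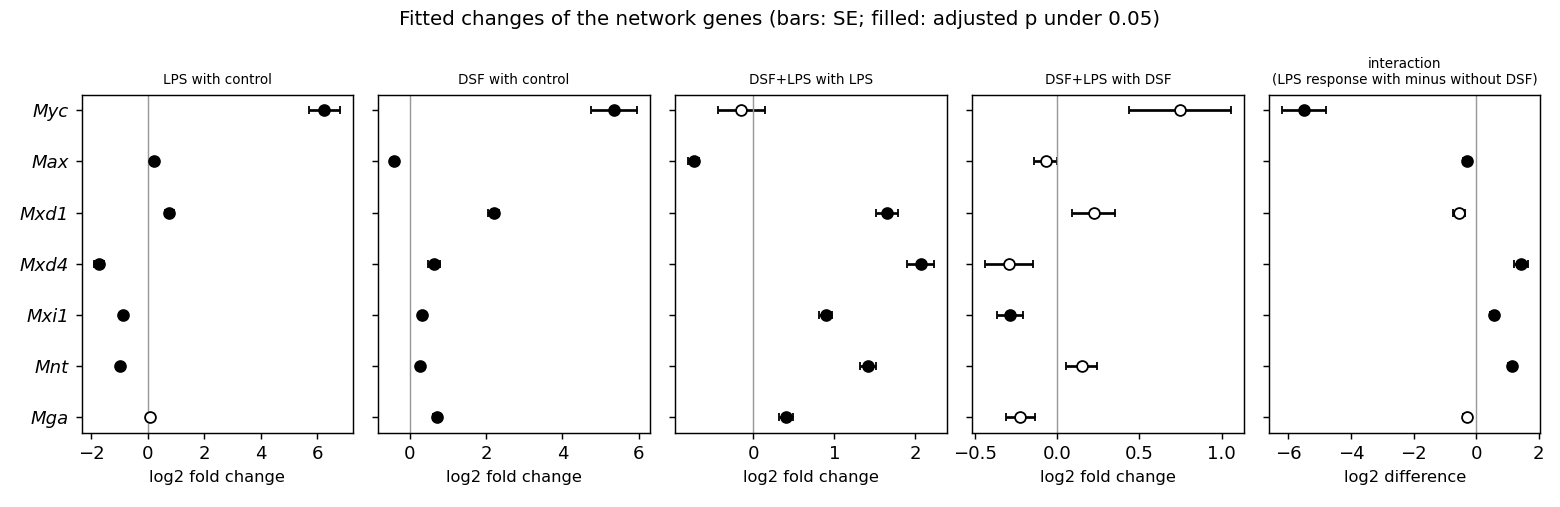
Log2 fold change of each of the 7 genes in each comparison except DSF+LPS against control, with bars of 1 standard error from the edgeR fit. Filled points passed an adjusted p of 0.05. The scale of the horizontal axis differs between panels. Mxd4, Mxi1 and Mnt lie below 0 for LPS alone and above 0 for DSF+LPS against LPS, while Max lies on the other side of 0 in both.

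The make-up of the network per length shows these changes together. Per kilobase of exon, Max was 56.0% of the summed counts of the 7 genes in control, 39.3% in DSF, 68.8% in LPS and 38.5% in DSF+LPS libraries. Mnt was 19.4% in control, 22.3% in DSF, 10.2% in LPS and 25.3% in DSF+LPS, and Mxi1 was 13.5%, 16.1%, 7.80% and 13.6% in the same order. Mxd1 went from 1.64% in control and 2.90% in LPS to 7.12% in DSF and 8.54% in DSF+LPS. Myc was the smallest part in control (0.0247%) and was 2.02% in LPS and 1.71% in DSF+LPS. Mxd4 was 2.44% in control and 0.764% in LPS. All 4 libraries with DSF thus had less Max and more Mxd1 in the mix than all 4 without it.

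**Figure D3:**
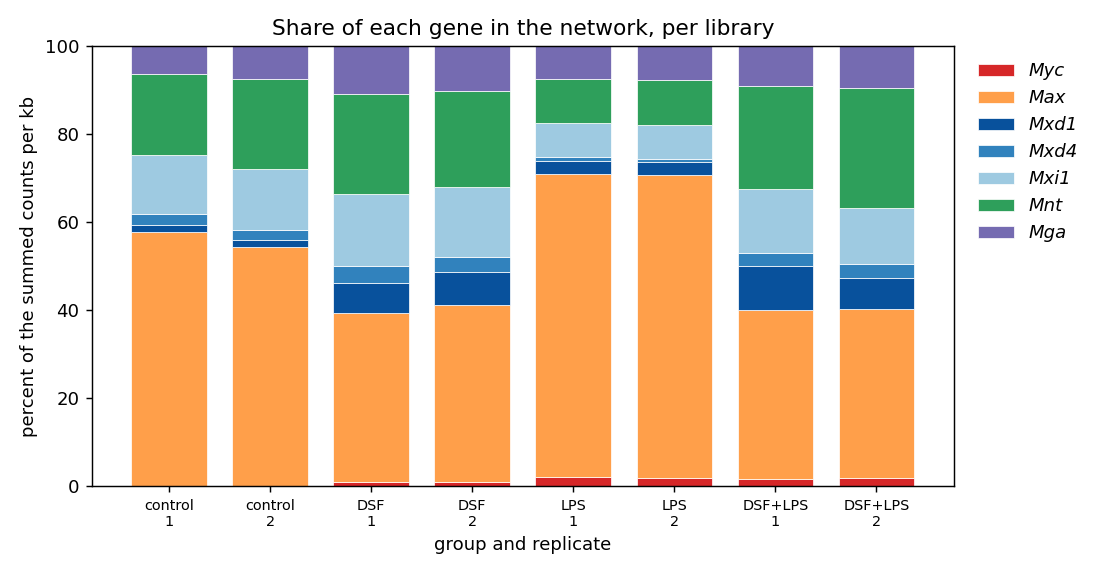
Share of each of the 7 genes in the summed counts per kilobase of exon of the network, one bar per library, in percent. The Max share is 68.7% and 68.8% in the LPS libraries, above all others, and 38.4% to 40.3% in the 4 libraries with DSF.

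The ratio of MXD to Myc messages was taken within each library, so no scaling between libraries enters it. The summed counts of Mxd1, Mxd4 and Mxi1 were 1838 and 2236 in control, 3419 and 3008 in DSF, 1223 and 1231 in LPS, and 3006 and 2397 in DSF+LPS libraries. The log2 of this sum over the Myc count, with 0.5 added to each, was 9.52 and 12.13 in control, 6.00 and 6.29 in DSF, 3.74 and 3.99 in LPS, and 5.46 and 5.05 in DSF+LPS libraries. The control values rest on 2 and 0 Myc reads, so they are set largely by the added 0.5 and by depth. The groups did not overlap, and their order was control, DSF, DSF+LPS, LPS. DSF before LPS raised the ratio over LPS alone by 1.39, while the Myc count itself showed no called difference. An exact permutation test, two-sided, gave p = 0.333 for each of the 5 comparisons of groups run, the smallest that 2 samples against 2 allow.

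Outside the 7 members, 8 further genes of the extended network were followed, all chosen with earlier results of these data known, as were the other lists below. The main change was in Mycl, the L-MYC gene and another MAX partner, with counts of 3 and 3 in control, 4 and 5 in DSF, 110 and 133 in LPS, and 13 and 15 in DSF+LPS libraries. Only the LPS libraries stood high. Mycl entered the test only through its counts in the groups with LPS, so these are a description and no test is read from them. Its fitted change with LPS was 5.31 on the log2 scale (SE 0.44), and DSF+LPS was at 0.126 of LPS (log2 -2.99, SE 0.35). The difference between its LPS responses with and without DSF was -3.58. The counts of both Myc and Mycl were thus higher with LPS than in control. With DSF alone the counts of Myc were higher too, while those of Mycl were 4 and 5. Mycn had at most 4 counts in any library. Mlxip, the glucose sensor MondoA, fell with DSF by 1.09 on the log2 scale (adjusted p = 5.00e-07) and its partner Mlx by 0.54 (adjusted p = 0.000224). Of the 7 tested, 2 rose and 2 fell with LPS, 0 rose and 3 fell with DSF, and 1 rose and 3 fell with DSF+LPS against LPS, beside 29.0%, 58.1% and 65.3% called over all genes. Mycl is counted among those that rose with LPS and those that fell with DSF+LPS against LPS. Each count of 0 given for a list here and below, from edgeR's test, was also 0 at an unadjusted p under 0.05 and with DESeq2.

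Among the proteins that work with or act on MYC, Pim1 changed the most with either agent against control. Pim1, a kinase that phosphorylates MYC, had 22.8 CPM in control, 108 in DSF, 225 in LPS and 243 in DSF+LPS cells. It rose 9.86-fold with LPS (adjusted p = 1.45e-12) and 4.75-fold with DSF (adjusted p = 7.88e-11), so both agents raised it, as with Myc, but the difference of DSF+LPS from LPS did not pass (log2 0.11, adjusted p = 0.236). Of 18 cofactor and turnover genes, 2 rose and 2 fell with LPS, beside 15.2% and 13.8% over all genes, and 4 rose and 9 fell with DSF, beside 31.0% and 27.1% (median log2 change -0.28, against 0.05 over all genes tested). Skp2, a ubiquitin ligase subunit that acts on MYC, fell with DSF by 1.13 on the log2 scale (adjusted p = 3.16e-06), and Kat2a, the acetyltransferase GCN5, by 1.00 (adjusted p = 4.09e-08). Zbtb17, which encodes MIZ1, the factor through which MYC represses genes, rose in DSF+LPS against LPS by 0.98 (adjusted p = 4.46e-07).

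Known MYC targets of the nucleolus and of ribosome assembly rose with LPS and mostly fell with DSF. Of 31 such genes, all tested, 20 rose and 0 fell with LPS, beside 15.2% higher over all genes, with a median log2 change of 0.27 against 0.02 over all genes. The rises were small: Rrp9, a nucleolar protein of ribosomal RNA processing, by 0.51, Mrto4 by 0.45 and Nip7 by 0.43. The count of 20 was 9 with library size alone and 13, 10, 12 and 13 without the first or second control and the first or second LPS library. With DSF 4 rose and 18 fell (median -0.21), beside 31.0% and 27.1% over all genes, though 1 or 2 rose in place of 4 with library size alone, with no filter and without either control, the second DSF or either LPS library. With DSF+LPS against LPS 2 rose and 19 fell (median -0.31), beside 33.7% and 31.6% over all genes. Polr1b, a subunit of RNA polymerase I, had 197 ± 5.40 CPM in control, 84.7 ± 1.82 in DSF, 210 ± 5.24 in LPS and 82.0 ± 9.80 in DSF+LPS cells (SD, n = 2). It stood lower in both groups with DSF (log2 -1.22 against control, adjusted p = 1.50e-08, and -1.35 against LPS, adjusted p = 3.07e-09). Dkc1, which modifies ribosomal RNA, fell by 0.80 with DSF (adjusted p = 1.38e-07). The direction of this list under DSF was opposite to the rise of Myc itself in the same libraries.

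Targets in metabolism and the cell cycle were mostly not called with LPS and mostly lower with DSF. Of 27 genes, all tested, 3 rose and 3 fell with LPS, or 3 and 9 with library size alone, beside 15.2% higher and 13.8% lower over all genes. With DSF 5 rose and 16 fell (median log2 change -0.30), beside 31.0% higher and 27.1% lower. With DSF+LPS against LPS 7 rose and 15 fell (median -0.35), beside 33.7% and 31.6%. Hk2, the inducible hexokinase, had 204 ± 1.37 CPM in control, 102 ± 8.22 in DSF, 379 ± 3.65 in LPS and 101 ± 8.31 in DSF+LPS cells (SD, n = 2). LPS raised Hk2 1.86-fold (adjusted p = 2.98e-07), and the DSF+LPS level was 0.267 of that with LPS (adjusted p = 4.42e-11), with a log2 difference of -0.01 from DSF alone (adjusted p = 0.947). Cad, which begins pyrimidine synthesis, fell by 1.06 with DSF (adjusted p = 5.97e-09) and Cdc25a, a phosphatase that lets cells enter S phase, by 1.20 (adjusted p = 9.62e-08). Ung, a DNA repair glycosylase, fell by 1.08 with LPS alone (adjusted p = 9.93e-07). Odc1, the first enzyme of polyamine synthesis and a classic MYC target, rose by 0.46 with LPS after DSF (adjusted p = 0.000296).

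**Figure D4:**
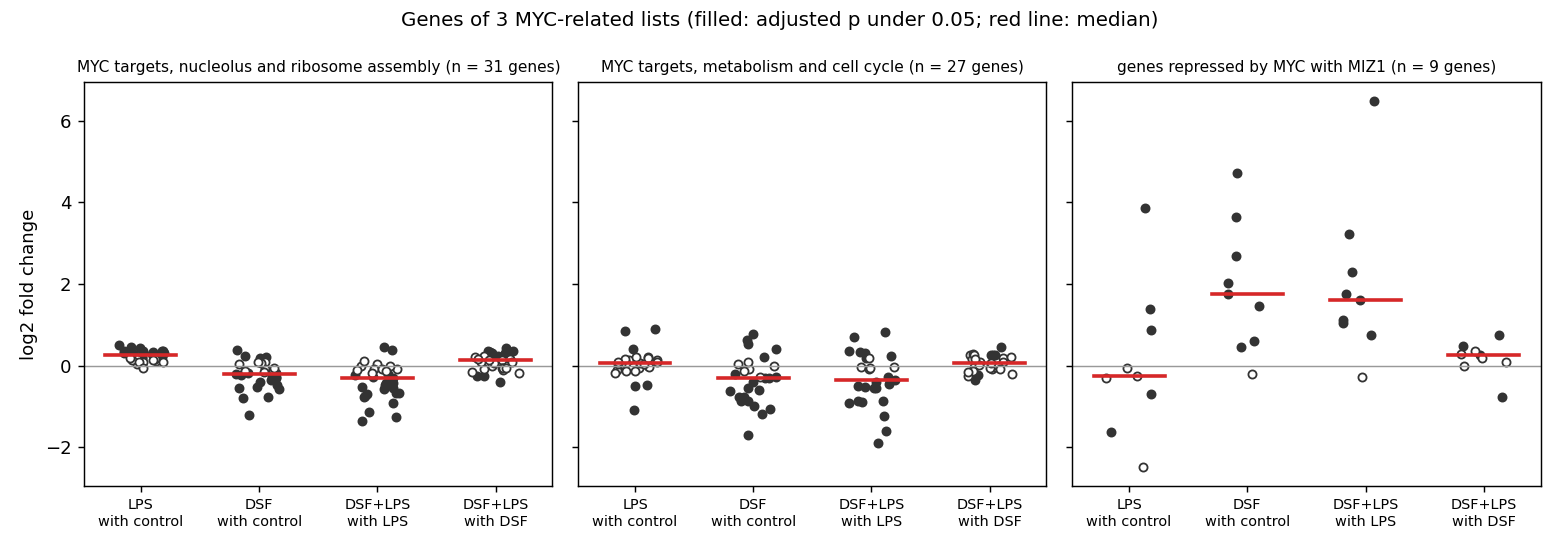
Log2 fold changes of the tested genes of the nucleolar, the metabolism and cell cycle, and the MIZ1 lists. The comparisons are those between groups, except DSF+LPS against control. Each gene is a point (filled where the adjusted p was under 0.05), with the list's median as a red line. The genes that MYC represses with MIZ1 lie mostly above 0 in the comparisons that add DSF (median 1.75 for DSF alone), and the nucleolar targets mostly below it (median -0.21).

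Genes that MYC represses with MIZ1, many of them brakes on the cell cycle, rose with DSF. Of 9, all tested, 8 rose and 0 fell with DSF, beside 31.0% and 27.1% over all genes (median log2 change 1.75, against 0.05). In DSF+LPS against LPS 8 rose and 0 fell, beside 33.7% and 31.6% (median 1.61, against 0.04). Both counts include Cdkn1c, with 7 counts in control, 88 in DSF, 1 in LPS and 105 in DSF+LPS cells. It entered the test only through the groups with DSF, where it is high, so no test is read from it. With LPS alone 3 rose and 2 fell, beside 15.2% and 13.8% over all genes, or 5 fell with library size alone. Ndrg1, a stress-response gene, had 66.6 ± 7.94 CPM in control, 430 ± 31.9 in DSF, 56.0 ± 0.540 in LPS and 522 ± 89.9 in DSF+LPS cells (SD, n = 2). That was 6.47-fold with DSF (adjusted p = 9.56e-11) and 9.32-fold for DSF+LPS against LPS (adjusted p = 8.79e-12). Gadd45a, a growth arrest gene induced by DNA damage, rose with either agent, by 3.86 on the log2 scale with LPS (adjusted p = 1.52e-08) and 4.72 with DSF (adjusted p = 7.33e-10). Cdkn2b, the inhibitor p15, was at 10.9 CPM in control, 36.7 in DSF, 20.0 in LPS and 41.6 in DSF+LPS cells, and Cdkn1a, the inhibitor p21, rose with DSF by 0.46 (adjusted p = 9.27e-05). Cebpa, a myeloid differentiation factor, fell with LPS by 1.62 (adjusted p = 2.88e-05) and was higher in DSF+LPS than in LPS by 2.29 (adjusted p = 1.90e-07). Cdkn1b, the inhibitor p27, was the member of this list with no call for DSF (log2 -0.20, adjusted p = 0.167), and it, Cdkn1a, Cdkn1c and Cdkn2b were named here after their values were seen.

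The genes of the corepressor that MXD proteins and MNT recruit were called in both directions. Of 14 SIN3 and histone deacetylase genes, 2 rose and 3 fell with LPS, a share near the 29.0% called over all genes. With DSF 6 rose and 7 fell, beside 31.0% and 27.1% over all genes, and in DSF+LPS against LPS 6 rose and 5 fell, beside 33.7% and 31.6%. The count of 6 that rose with DSF was 3 without the second control library. Sin3a, the scaffold, was lower with either agent, by 0.58 on the log2 scale with LPS (adjusted p = 5.43e-05) and 1.03 with DSF (adjusted p = 7.54e-08). Arid4b, another subunit, went the other way with DSF and rose by 1.50 (adjusted p = 1.99e-06). In the PRC1.6 complex around MGA, 1 of 10 genes rose and 5 fell with DSF, beside the same 31.0% and 27.1%. L3mbtl2, a core subunit, fell by 1.34 (adjusted p = 6.83e-08) while Mga and Rybp rose, Rybp by 1.21 (adjusted p = 2.45e-09).

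Most of the germline genes that PRC1.6 silences had few or no counts in these macrophages. Of 16 such genes, 2 had no count in any library, and 4 passed the filter on low counts, Stra8 and Ddx4 only through their counts in the groups with DSF. Stra8, a gene needed to start meiosis, had 0 and 0 counts in control, 11 and 36 in DSF, 0 and 0 in LPS, and 20 and 22 in DSF+LPS libraries. With 3 counts over the group as the limit that a count of 0 allows, it was at least 14.9-fold higher in DSF than in control and at least 14.6-fold higher in DSF+LPS than in LPS. Ddx4, a germ cell RNA helicase, had 0 and 4, 12 and 12, 0 and 2, and 15 and 6 counts in control, DSF, LPS and DSF+LPS libraries. Since both entered the test through the groups where they are high, their counts are given as a description and no test is read from them. Tdrkh, the member of the list with a clear level, had 39.2 CPM in control, 25.9 in DSF, 36.2 in LPS and 21.8 in DSF+LPS cells, and fell with DSF by 0.60 on the log2 scale (adjusted p = 0.000160). Taf9b, at 95 counts in control and 44 in DSF cells, fell with DSF by 1.07 (adjusted p = 0.0317). Stra8, Ddx4 and Taf9b were named after their values were seen. In the promoter table, 10 of these 16 genes carry CACGTG (62.5%), against 8.09% of the 27025 genes with a promoter there, 26.9% of the nucleolar targets and 28.0% of the metabolic and cell cycle targets. More genes had at least 1 count in the libraries with DSF, as given above, and the part of that in these low counts was not tested.

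Of 4 genes that MLX and MondoA activate, 0 rose and 2 fell with LPS, and 2 rose and 1 fell with DSF, too few genes to set against the share over all genes. Txnip, a brake on glucose uptake, fell with DSF by 1.04 on the log2 scale (adjusted p = 4.97e-07), and was lower in DSF+LPS than in LPS by 1.33 (adjusted p = 2.93e-08). Klf10 fell with LPS by 1.18 (adjusted p = 3.26e-06) and was higher in DSF+LPS than in LPS by 1.57 (adjusted p = 4.90e-08).

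The genes whose levels ran most like each member were found by the root mean square difference of log2 CPM, centred on each gene's mean, over the 8 libraries. For Myc these were Mmp12, a macrophage elastase, at 0.417 (Pearson r 0.978), Mir155hg, the host of the TLR-induced microRNA miR-155, at 0.449 (r 0.976), and A1cf at 0.459 (r 0.974). For Mxd1 they were Mid1 at 0.111 (r 0.995), the clock gene Per1 at 0.129 (r 0.995) and Skil, a corepressor of TGF-β signalling, at 0.156 (r 0.992). Max ran closest to Nufip1 at 0.0355 (r 0.994), Mxi1 to Fzd7 and the TGF-β receptor Tgfbr1 at 0.0824 and 0.0882, Mnt to Nav1 at 0.0900, Mxd4 to the histone gene Hist2h2be at 0.140 and Mga to the integrin Itgav at 0.0655. These are descriptions over 8 libraries in 4 groups that share their treatments.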

How the data were processed

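Messenger RNA of 8 iBMDM samples, 2 in each of 4 groups, was sequenced. The authors deposited raw read counts for each gene as whole numbers. The submitters' processing notes name GRCm39 and DESeq2 with no role, and no aligner, counter, annotation or strand setting is given in the sources used here. Libraries held 17822041 to 21694922 counts, and 52081 of 55414 identifiers matched a symbol. Genes were kept by filterByExpr (minimum count 10, minimum total 15), scaled by TMM and tested with edgeR 4.0.16 (R 4.3.3) by the quasi-likelihood test with 1 mean per group over all 8 libraries, with Benjamini-Hochberg adjustment over the 16304 genes of a comparison. The standard error is the absolute log2 change divided by the square root of F. Exon lengths per gene came from GENCODE M21 on GRCm38, another build than the counts, and promoters from RefSeq on GRCm38.p6. The fit was tested on simulated data. The members and lists were chosen with earlier results of these data known. Named list genes were up to 3 called genes per list and comparison with the largest change and at least 5 CPM in the higher group, and like-pattern genes the 3 nearest in log2 CPM (prior count 2). Alternatives were median-of-ratios size factors, library size alone, DESeq2 1.42.0, no filter, only the groups compared, a replicate block, and each library left out. The same alternatives for the lists were added after seeing the data.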

Additional observations from a re-analysis of the deposited data

Results flagged for a closer look

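The LPS response of 5 members differed by a test of the difference itself, the interaction term of the edgeR fit, between cells with and without DSF. It was higher with DSF in Mxd4 by 1.44 on the log2 scale, in Mnt by 1.14 and in Mxi1 by 0.57, all of which fell with LPS alone. It was lower in Myc, at -5.50, and in Max, at -0.31. The Myc value rests on 2 control reads. Myc also entered the test only through the treated groups, so no support is read from its call. The Max call did not hold without any 1 of the libraries.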

How the results depend on the processing

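The fold changes of the 7 members in 6 comparisons were recomputed 588 times under other settings: 540 kept their direction and their side of the threshold, 33 were no longer called, 9 became called and 6 reversed. The reversed values were all uncalled: Mga with LPS (-0.084 with library size alone, -0.040 without the first control library, from -0.040 to 0.19 with a library left out), Mxd1 in DSF+LPS against DSF (-0.034 without the first DSF+LPS library, to 0.46 without the second), and Mxi1 in DSF+LPS against control (-0.17 with library size alone, -0.0096 without the first control library, and from -0.069 without the first DSF+LPS library to 0.11 without the second). The number of members called in DSF+LPS against DSF, 1, was 0 with median-of-ratios factors, 2 with library size alone, 0 with only those groups in the fit, and 0 to 2 with a library left out. With Mxd1 alone over Myc the log2 ratio differed by 1.77 for DSF+LPS against LPS, -0.55 against DSF and -3.73 against control, and for DSF+LPS against LPS by 1.03 with Mxi1 alone and 2.23 with Mxd4 alone. The cause of these shifts was not tested. Over all genes, DSF+LPS against DSF gave 901 higher and 1065 lower calls, but 324 and 200 with only those groups in the fit and 250 and 149 without the first DSF library. The labels do not say whether samples of the same number belong together. The groups' replicate differences correlated at -0.119 to 0.0531 over genes, which shows no strong shared difference but cannot decide whether the samples were paired. The replicate block ended 1 member's call, the interaction of Max (adjusted p = 0.0503). Depth limits Myc in control, where 2 reads set every fold against control and the difference of its LPS responses.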
